A study of Mus musculus with 2 samples.

Results

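Prf1 (ENSMUSG00000037202) encodes perforin, the protein of cytotoxic granules that forms pores in the membrane of a target cell. The gene lies on the plus strand of chromosome 10 (mm10, 61297833 to 61304680), with start sites at 61297833 and 61299801 in the GENCODE M21 basic annotation. Its open sites were the peaks whose summit lay within 100 kb of a Prf1 start site and nearer to it than to any other protein-coding start site. A summit within 1 kb of a start site made a peak a promoter peak, and all others were distal. These rules gave 15 of 127423 peaks in the vehicle library and 20 of 179414 peaks in the TAMo library. The gene was chosen by its summit coverage in these same libraries, with the contrast between its promoter and its distal sites known, so the values below are descriptions and none was tested.

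The cells were mouse OT-I CD8+ T cells, labelled WT, which carry a transgenic receptor for an ovalbumin peptide. They were stimulated with the peptide OVA257-264 for 48 h, with vehicle in one culture and with TAMos in the other. The design text describes TAMos as CD11b+ Ly6G- Ly6C-high cells from spleens of mice with LLC tumours, a lung carcinoma line. About 50000 sorted CD8+ T cells went into each ATAC-seq library, in which a transposase cuts and tags open DNA, and there was 1 library for each culture. No difference below has a replicate check, and intervals cover counting error only.

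Perforin is stored with granzymes in the secretory lysosomes of cytotoxic lymphocytes and is released at the contact with a target cell, where its pores let granzymes into the cell. Calcium, the pH of the granule and the fusion machinery of the granule control its release. Prf1 is transcribed in natural killer cells and activated CD8+ T cells. The factors T-bet, Eomes and Runx3 and signals from the IL-2 receptor through STAT5 are known to act on the gene, and ETS-family sites are known in its promoter.

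The promoter sequence is shown because the largest departure at Prf1 lay over it. The 247 bases before the first start site (RefSeq promoter table, GRCm38.p6, chr10:61297586-61297832, plus strand) read 5′ to 3′ as follows, with capitals for matches to the ETS letters AGGAAG and the RUNX letters TGTGGT on either strand.
Prf1 promoter: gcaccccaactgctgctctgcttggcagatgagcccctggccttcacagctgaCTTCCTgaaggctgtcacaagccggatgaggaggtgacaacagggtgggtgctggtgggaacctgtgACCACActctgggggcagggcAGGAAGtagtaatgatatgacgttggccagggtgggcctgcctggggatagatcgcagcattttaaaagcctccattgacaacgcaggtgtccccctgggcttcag
The RUNX match (chr10:61297706-61297711, minus strand) began 24 bp after the vehicle summit of the peak over the start site and 32 bp after the TAMo summit. The plus-strand ETS match (chr10:61297727-61297732) began 45 bp after the vehicle summit, and the other, on the minus strand, lay before both summits (chr10:61297639-61297644). The whole window of 300 bases, which runs 250 bases before to 50 after the RefSeq start, held 4 ETS matches, 1 RUNX match and 4 matches to the E-box letters CANNTG. Of all 32851 such windows, 35.4% held the ETS letters, 16.8% the RUNX letters and 72.3% the E-box letters. The other letters searched, all on both strands, were CCGGAAGT (a longer ETS form), AGGTGTGA (T-box), TGANTCA (AP-1) and TTCNNNGAA (STAT), and they did not occur in the Prf1 window. They occurred in 3.89%, 1.28%, 7.81% and 8.3% of all windows. An NF-kB motif was searched too, with no match in the Prf1 window and a match in 0.155% of all windows. A match of letters is not a measured binding site.

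Coverage at each summit, in reads, was recovered from the fold enrichment and −log10 p of the peak and divided by the background coverage of its library, 4.71 reads for vehicle and 5.80 reads for TAMo. Whether the caller piled up whole fragments or extended cut sites is not given, so a read here is 1 unit of its pileup, and the intervals treat these units as counts. The log2 ratio on this scale (TAMo over vehicle) had a median of 0.05 over 17642 promoter regions open in both libraries, 0.37 over 86203 distal regions and 0.28 over all 103845. Of the 9 CD8 T cell marker genes examined, all had a promoter peak in both libraries, with a summed promoter coverage of 937 times background in vehicle and 971 in TAMo. Of 10 myeloid marker genes, 3 had a promoter peak in vehicle and 6 in TAMo, with sums of 144 and 237. Itgam, Csf1r and Adgre1 had one in TAMo only, whereas Lyz2, Ly6c2, Ccr2 and Csf3r had none in either library. Of the 3 with overlapping peaks, Cd14 (141 and 411 reads, log2 ratio 1.24) and Spi1 (25 and 57 reads, 0.89) were higher in TAMo. Cd68 (510 and 661 reads, 0.07) had an interval across 0 and made up 108 of the vehicle sum. Of 5 B cell genes, 2 had a promoter peak in vehicle and 3 in TAMo, with sums of 15.1 and 24.8, and Cd79a had none in either library. The TAMo list was longer (179414 against 127423 peaks), and the share of all genes with a promoter peak in each library is not given here. The part of the myeloid difference in the Prf1 values was not tested.

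**Figure D1:**
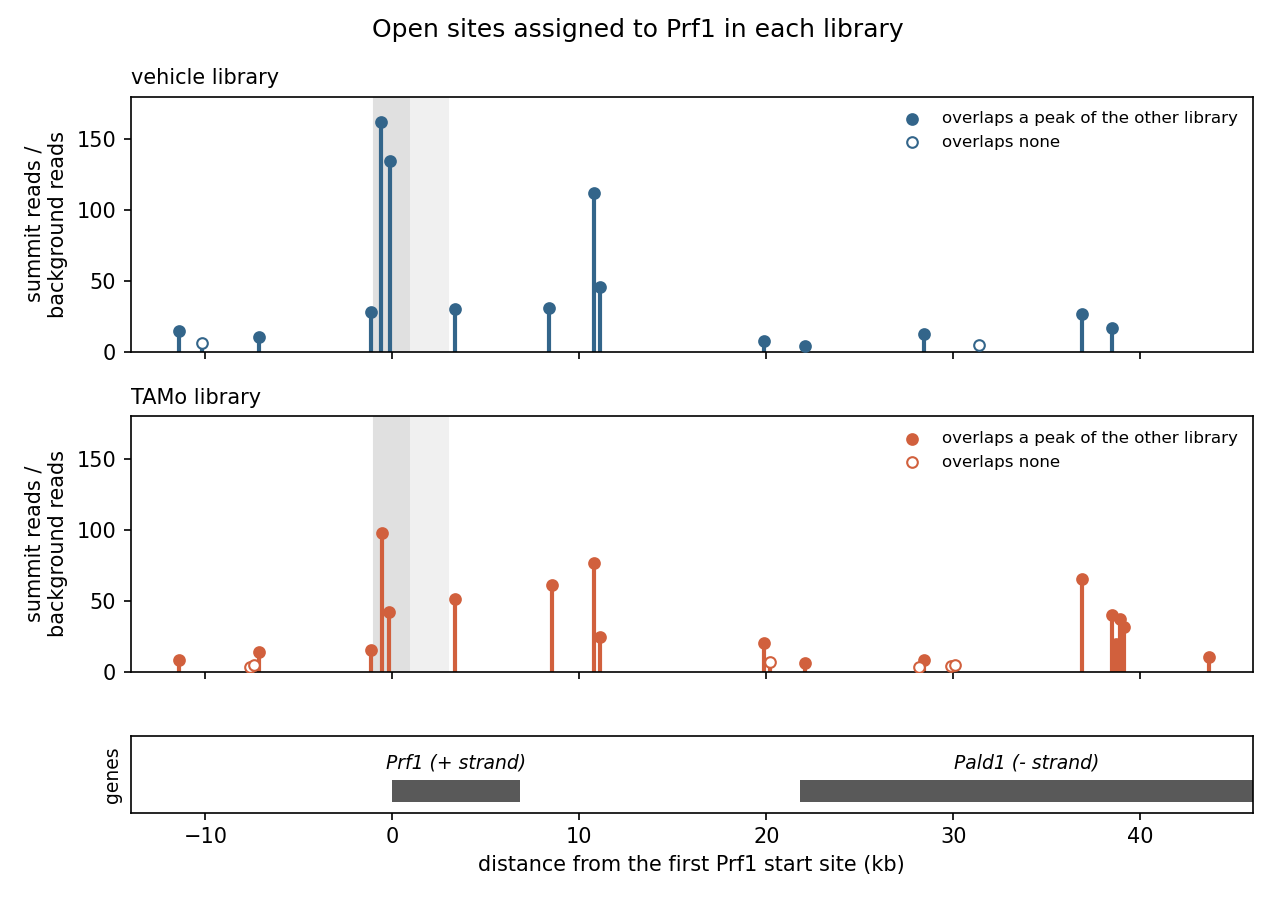
Summit coverage of every Prf1 peak, in reads divided by the background reads of the library (vertical axes), against distance from the first start site in kb, for the vehicle library (top) and the TAMo library (middle), with genes below. Dark and light shading mark 1 kb around the first and second start sites; the tallest points are the promoter summits at 162 times background in vehicle and 97.7 in TAMo.

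Most Prf1 sites were open in both cultures. Joining overlapping peaks of both lists gave 13 shared regions, 2 of them in the promoter and 11 distal. Of the 15 vehicle peaks, 2 overlapped no TAMo peak, against 12.5% of all vehicle peaks. Of the 20 TAMo peaks, 6 overlapped no vehicle peak, against 39.5% of all TAMo peaks. These one-library peaks were all distal and weak. The vehicle-only summits held 30 reads (10.2 kb before the first start site in chr10:61287567-61287717) and 24 reads (in an intron of Pald1, chr10:61329141-61329305). The 6 TAMo-only summits held 19 to 40 reads, of which the highest lay at chr10:61317901-61318171. A missing peak is a missing call, since coverage of the other library is not known there.

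The promoter held 2 separate open regions, and both had lower coverage in the TAMo library. The region over the start site (chr10:61297503-61297845) had a vehicle summit 151 bp before the first start site. It reached 634 reads in vehicle and 243 reads in TAMo, or 135 and 41.9 times background. The log2 ratio was −1.69 (95% exact binomial interval −1.91 to −1.47), a 3.22-fold lower coverage. The spread of this value over cultures is unknown. In a pool of cells, fewer cells with an open site and a less open site in each cell cannot be told apart.

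The second promoter region lay just upstream (chr10:61296789-61297462), with its vehicle summit 600 bp before the first start site. It reached 764 reads in vehicle and 567 reads in TAMo, or 162 and 97.7 times background, a log2 ratio of −0.73 (−0.89 to −0.57), 1.66-fold lower. Both intervals lay below 0, beside 16.7% of all shared promoter regions with the interval below 0 and 27.3% with it above. At least 2-fold lower was 1 of the 2, beside 0.918% of all shared promoter regions, and at least 2-fold higher was 0, beside 4.95%. Of the 2 regions, the one over the start site had the lower ratio. The upstream summit held 1.2 times the reads of the start-site summit in vehicle and 2.33 times in TAMo. Neither list had a summit within 1 kb of the second start site, so no value is given for it.

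Among all promoters the start-site region stood near the low end. Only 15 of the 17642 shared promoter regions had a lower ratio. Of the 3104 promoter regions with at least 634 reads in vehicle, 1 had a lower ratio (that of Cass4), and their median was −0.00. By vehicle coverage the region stood at percentile 82.4 of shared promoter regions, and by TAMo coverage at percentile 38.0. For the stronger upstream region, which represents the gene when each promoter is given by its highest summit, 2.15% of 12615 genes had a lower ratio. The gap of 0.95 between the 2 Prf1 regions was less unusual, at percentile 86.9 of 3881 genes with 2 or more shared promoter regions, whose median gap was 0.37.

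**Figure D2:**
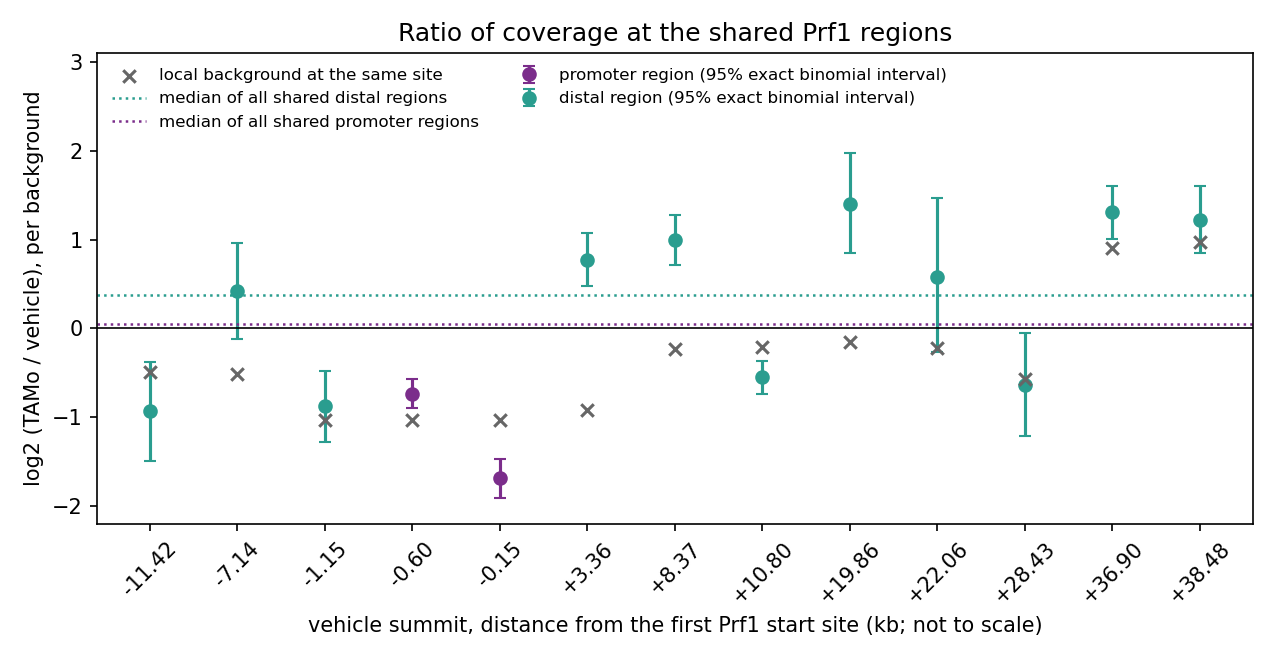
Log2 ratio of TAMo over vehicle coverage (vertical axis) at the 13 shared Prf1 regions in order along the chromosome (horizontal axis, kb from the first start site to the vehicle summit), with 95% exact binomial intervals, and the ratio of local background at the same sites as crosses. The promoter regions lie at −0.73 and −1.69, and distal regions lie on both sides of 0, from −0.93 to 1.40.

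Distal regions had ratios on both sides of 0. Their median log2 ratio was 0.58, beside 0.37 over all shared distal regions, with 7 regions above 0 and 4 below. With 11 regions, this median is the value of the region 22.1 kb downstream, which had only 19 and 35 reads (−0.27 to 1.47). The counting interval lay above 0 for 5 of the 11, below 0 for 4 and across 0 for 2, where 47.3% of all shared distal regions lay above and 13.1% below. At least 2-fold higher coverage in TAMo was found at 3 of 11, beside 25.4% of all shared distal regions, and at least 2-fold lower coverage at 0, beside 3.65%. Since the gene was picked for this contrast, nothing is read from these counts. Nearest to the line for 2-fold higher were the region 38.5 kb downstream, inside at 2.33-fold, and the region 8.37 kb downstream, just outside at 1.99-fold. Nearest to the line for 2-fold lower, both just outside, were the regions 11.4 kb upstream (1.90-fold lower) and 1.15 kb upstream (1.84-fold lower).

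Upstream of the promoter, 3 shared regions lay between Adamts14 and Prf1. The region 1.15 kb before the start site (chr10:61296608-61296771), just outside the promoter window, had 134 reads in vehicle and 90 reads in TAMo, a log2 ratio of −0.88 (−1.28 to −0.48). It stood beside the promoter in position and in direction. The region 11.4 kb upstream (chr10:61286304-61286519) had 71 and 46 reads, a ratio of −0.93 (−1.50 to −0.37) and the lowest of the distal regions. Between them, the region 7.14 kb upstream (chr10:61290535-61290971) had 48 and 79 reads, and its ratio of 0.42 (−0.12 to 0.97) could not be told from 0 at this depth.

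Inside the gene there was 1 region, in an intron (chr10:61301062-61301364), 3.36 kb after the first start site. It had 141 reads in vehicle and 297 reads in TAMo, or 30.0 and 51.2 times background, a log2 ratio of 0.77 (0.48 to 1.07). Its summit coverage was thus higher in TAMo, whereas that of the start-site region of the same gene was lower. The local background at this intron site went the other way from its summit, with a log2 ratio of −0.91. The vehicle summit lay 1396 bp from the second start site, so the region counts as distal only by the 1 kb rule.

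Between the end of Prf1 and Pald1, the regions differed in direction. The strongest distal site of the gene in both libraries lay 10.8 kb after the first start site (chr10:61308407-61309171), with 527 reads in vehicle and 444 reads in TAMo, a log2 ratio of −0.55 (−0.74 to −0.36). A second summit in the same interval held 216 and 142 reads (−0.91, −1.22 to −0.60), so both summits of this site were lower in TAMo. A neighbour 8.37 kb from the start site (chr10:61306043-61306545) went the other way, with 145 and 356 reads and a ratio of 0.99 (0.71 to 1.28). Its summits lay 139 bp apart in the 2 libraries, whereas the summits of the other shared regions lay 1 to 17 bp apart. The region 19.9 kb downstream (chr10:61317488-61317852) had the highest ratio of the gene, 1.40 (0.85 to 1.98), on only 36 vehicle reads and 117 TAMo reads.

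The remaining 4 regions lay within Pald1, which encodes a phosphatase-domain protein and is transcribed towards Prf1. The regions 36.9 kb (chr10:61334425-61334981) and 38.5 kb (chr10:61336143-61337053) after the Prf1 start site had 125 and 80 reads in vehicle and 381 and 230 reads in TAMo. Their log2 ratios were 1.31 (1.01 to 1.61) and 1.22 (0.85 to 1.61). At the second of them the vehicle peak was 288 bp wide with 1 summit, and the TAMo peak was 908 bp wide with 4 summits of 112 to 230 reads. The region 28.4 kb downstream (chr10:61326117-61326467) was lower in TAMo, with 59 and 47 reads (−0.63, −1.22 to −0.05). The region 22.1 kb downstream, in an untranslated exon of Pald1, had 19 and 35 reads, too few to tell its ratio of 0.58 from 0 (−0.27 to 1.47). Whether any distal region acts on Prf1 or on Pald1 was not measured, and the assignment is by distance alone.

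Summed over the shared regions, the promoter held a smaller share of the coverage in TAMo. The promoter regions summed to 297 times background in vehicle and 140 in TAMo, and the distal regions to 294 and 366. Its share was 50.2% in vehicle and 27.6% in TAMo. The peak caller also assigned a local background to each summit, which averages reads of the same library over surrounding sequence of a width not given. It is not independent of the summit values, and neighbouring sites had near-equal values. Around the promoter it came to 55.8 reads (vehicle) and 33.6 (TAMo), a log2 ratio of −1.03 after scaling by library background, and at the region in the intron it was −0.91. At the regions 36.9 kb and 38.5 kb downstream it was 0.90 and 0.97. The local values were therefore lower around the gene and higher at the far end within Pald1, like the summits there, but at 5 regions (7.14 kb upstream and 3.36, 8.37, 19.9 and 22.1 kb downstream) the summit ratio was above 0 and the local ratio below 0.

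Sites just outside the distance rule were nearer to other genes. The last shared region upstream that belonged to Prf1 was the one at 11.4 kb. The next, 16.5 kb before the Prf1 start site, was nearer to Adamts14, which encodes a procollagen-processing protease, and had 694 reads in vehicle and 816 in TAMo (−0.07, −0.22 to 0.08), an interval across 0. A further strong site 22.03 kb upstream had 697 and 548 reads (−0.65, −0.81 to −0.49). The promoter of Adamts14 itself had some summits at least 2-fold lower in TAMo. They lay 23.84 kb upstream of Prf1 with 326 and 183 reads (−1.14, −1.40 to −0.87) and 23.52 kb upstream with 346 and 212 reads (−1.01, −1.26 to −0.76). Both ratios lay below that of the strongest Prf1 promoter peak and above that of its start-site region. The Adamts14 promoter summit nearest to its start site, 24.22 kb upstream of Prf1, was less reduced, with 141 and 133 reads (−0.39, −0.74 to −0.03). A site 23.05 kb upstream, outside that promoter window, had 428 and 498 reads and an interval across 0 (−0.08, −0.27 to 0.11). Downstream, 1 TAMo interval (chr10:61341399-61342023) straddled the midpoint to Pald1. Its weaker summit of 60 reads was counted for Prf1, and its stronger summit of 175 reads belonged to Pald1, where vehicle had 60 reads (1.24, 0.81 to 1.69).

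**Figure D3:**
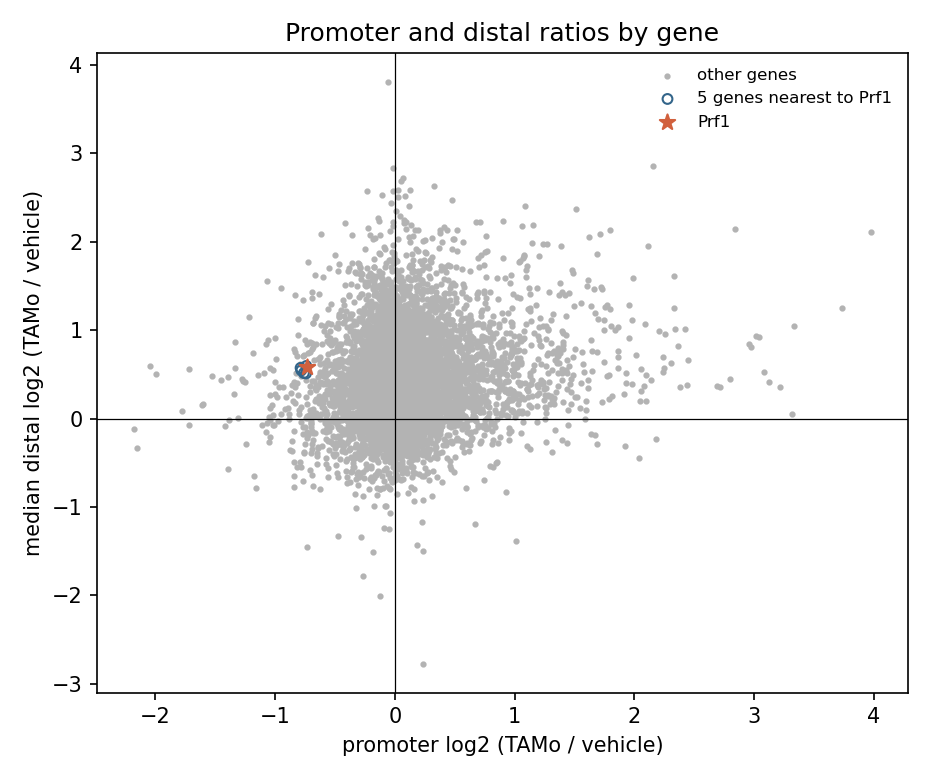
Median log2 ratio of the shared distal regions of a gene (vertical axis) against the log2 ratio at its strongest promoter peak (horizontal axis), 1 point for each of 6949 genes with at least 3 shared distal regions. Prf1 (star) lies at −0.73 and 0.58, left of most genes, and the 5 genes nearest to it are circled.

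The promoter and distal values were set beside those of other genes. The distal median minus the ratio of the strongest promoter peak was 1.31 for Prf1 (0.45 to 2.21, counting error only). Its distal part is the value of the weakly covered region 22.1 kb downstream. The interval combines the counting intervals of that region and of the promoter peak. It is not an interval for a median over the 11 distal regions. Over 6949 genes with overlapping strongest promoter peaks and at least 3 shared distal regions, the median of this difference was 0.32 (quartiles −0.03 and 0.70), and Prf1 stood at percentile 93.9. The 5 genes nearest to Prf1 in both values, by the straight-line distance between the pairs of log2 ratios, were Phgdh, Gm11077, Hebp1, Ddx19a and Ticam2. Phgdh, which encodes the first enzyme of serine synthesis from glycolysis, was the closest, with a promoter ratio of −0.74 (−0.97 to −0.52) and a distal median of 0.59 over 6 regions, at a distance of 0.018. The next, Gm11077, had only 28 and 20 promoter reads and an interval across 0 (−0.79, −1.69 to 0.09). The 4 genes after Phgdh lay at distances of 0.056 to 0.070. The likeness rests on 2 values from 1 library pair.

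**Figure D4:**
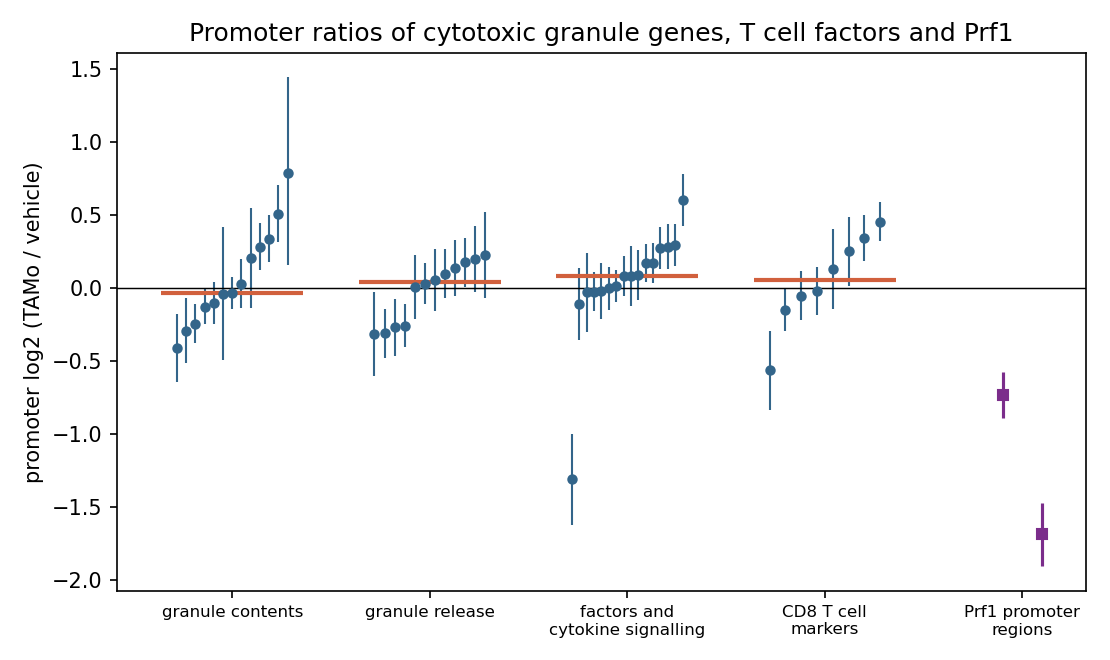
Promoter log2 ratio of TAMo over vehicle (vertical axis) for members of 3 gene lists, CD8 T cell markers and the 2 Prf1 promoter regions (squares), with 95% exact binomial intervals and list medians as bars. The 41 genes of the first 3 lists, each given by its strongest promoter peak, lie between −1.31 and 0.79. By that measure Prf1 lies within this range, at −0.73, and its weaker start-site region lies at −1.69.

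Of the other genes of the cytotoxic granule, none with a measured ratio lay below the strongest Prf1 promoter peak. Of 21 genes for granule contents, 13 had overlapping strongest promoter peaks, with a median log2 ratio of −0.04, against 0.03 over all 12615 genes. None of the 13 was at least 2-fold higher or lower, where 3.91% and 0.967% of all genes were. Counting intervals lay above 0 for 4 and below 0 for 4, beside 26.3% and 17.9% of all genes. The lowest were Serpinb6b (−0.41), a granzyme inhibitor of the serpin family, and Lamp1 (−0.29), a membrane protein of lysosomes and granules. The highest were Srgn (0.51), the proteoglycan that packs granule proteins, and Gzmc (0.79, 0.16 to 1.44), whose promoter peak held only 32 vehicle reads. Gzmb, the granzyme that activates caspases, had 1048 and 1181 reads (−0.13). Gzme, Gzmf and Gzmg had a promoter peak in TAMo only, with 162, 27 and 21 reads. Of all TAMo peaks, promoter or distal, 39.5% overlapped no vehicle peak, and the share for promoters alone is not given here. Gzma (37 and 71 reads) and Gzmm (34 and 138 reads) had their strongest promoter peaks at different sites in the 2 libraries. Gzmd and Gzmn had no promoter peak. Gzme, Gzmf and Gzmg lie in a cluster of similar genes, and whether reads were shared between copies is not known.

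Genes for granule release and transport also had a median near 0. All 12 on chromosomes 1 to 19 had overlapping promoter peaks, with a median of 0.04. At least 2-fold higher or lower were 0, beside 3.91% and 0.967% of all genes. Counting intervals lay above 0 for 1 and below 0 for 4, beside the same 26.3% and 17.9% of all genes. The lowest were Syt7 (−0.32), a calcium sensor of lysosome fusion, and Rab27a (−0.31), the GTPase that docks granules. The highest were Vamp2 (0.20) and Vamp8 (0.22), fusion proteins of vesicles, both with intervals across 0 and both below 0 when centred on all shared regions (−0.08 and −0.05).

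Transcription factor and cytokine signalling genes of CD8 T cells, among them the known regulators of Prf1, had a median of 0.08 over 16 of 18 genes, with 6 intervals above 0 and 1 below, beside 26.3% and 17.9% of all genes. Mef2c, a transcription factor gene, was at least 2-fold lower, as were 0.967% of all genes, with 263 and 131 reads (−1.31), and was the 1 gene of the 3 lists whose ratio lay below that of the strongest Prf1 promoter peak. Bcl6, a repressor gene, was the next lowest (−0.11), and Runx1 (0.29) and Stat4 (0.60), which transmits IL-12 signals, were the highest. Promoters of Runx3 (0.01) and Eomes (−0.03) had intervals across 0, and the strongest promoter peaks of Tbx21 and Il2rb lay at different sites in the 2 libraries. The list medians are small beside the shift of 0.28 over all shared regions: centred on it, all 3 lie below 0, and centred on promoter regions only the median of the last list stays above 0.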

How the data were processed

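ATAC-seq peaks of 1 vehicle and 1 TAMo library were used. Per the labels' protocols, TruePrep libraries were sequenced with paired 150 bp reads. Tools listed in the submitters' processing notes are Trimmomatic 0.36, Bowtie2 and MACS2, with mm10 as the build. Their settings, read shifting and duplicate removal were not given. The deposited lists, 1 per library, give each summit a score (10 times the −log10 q), a fold enrichment over local background (a ratio), a −log10 p and a −log10 q, all set by the authors' peak caller. The score was not used further.

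Whole summit coverage was solved from fold and −log10 p (Poisson tail) with a tolerance of 1% of the step from one whole coverage to the next. No solution was found for 30 of 163215 vehicle rows and 48 of 225656 TAMo rows. Median summit coverage was 81 reads (vehicle) and 93 reads (TAMo). The solver was tested on simulated data. The most frequent local background served as depth. Peaks were called per library and joined where they overlapped by at least 1 bp, and each shared region was represented by its highest summit in each library. Ratios carry 95% exact binomial (Clopper-Pearson) intervals. Reads are not independent molecules, so these cover counting error only, and no test between groups was possible. Start sites came from GENCODE M21 (GRCm38, the assembly of mm10), chromosomes 1 to 19. A promoter peak had its summit within 1 kb of a start site.

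Named list genes were the 2 highest and 2 lowest promoter ratios of each of 3 lists. Gzmb, the granzymes without a ratio, Runx3, Eomes, Tbx21 and Il2rb were added after their values were seen. Prf1 and the lists were chosen with earlier results of these data known. Motifs were searched in the RefSeq promoter table only; sequence of distal peaks was not used here. Python 3.11.15, scipy 1.17.1 and pandas 2.3.3 were used.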

Additional observations from a re-analysis of the deposited data

How the results depend on the processing

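The promoter ratio of Prf1 stayed below 0 and its distal median above 0 under each alternative run for it (scaling, promoter window, nearest promoter summit (not run for the distal median), mean over summits, −log10 q of at least 10, a TAMo list cropped to as many peaks as vehicle had, 50 kb (not run for the promoter ratio), and overlap of 50% of the shorter peak). The promoter ratio moved from −0.73 to −1.01 when centred on all shared regions, and to −1.69 both with the summit nearest to a start site and with a window of 0.5 kb, because the start-site region then stands for the promoter; the distal minus promoter difference was then 2.18 with that window. Centring on shared promoter regions gave −0.78, and the other settings left the promoter ratio exactly as it was, so they are no check on it. The distal median was likewise unchanged with the lowest background as depth, the 2.5 kb window, the mean over summits and the overlap of 50%. It was also unchanged at 50 kb, since all Prf1 peaks lay within that distance. Distal regions at least 2-fold lower rose from 0 to 2 when centred on all shared regions. Those at least 2-fold higher fell from 3 to 2 with that centring and with the mean over summits. The number of TAMo peaks fell from 20 to 13 both with −log10 q of at least 10 and with the cropped list, while vehicle peaks numbered 12 and 15; the surplus of TAMo peaks near Prf1 thus rests on weak calls. Among single regions and list genes, 11 of 50 centred values left their counting interval, all downward and all centred on all shared regions; Vamp2 and Vamp8, whose intervals cross 0, changed sign. The 2-fold counts and the centring of single regions and genes were added after seeing the data. Depth limits the regions 7.14 kb upstream and 22.1 kb downstream, whose intervals cross 0. No paired analysis was possible because each group holds 1 library, and for the same reason no replicate could be left out.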

Other observations

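The promoter regions with a lower TAMo over vehicle ratio than the Prf1 start-site region were named after their values were seen. The lowest belonged to Ccr6, a chemokine receptor gene (328 reads in vehicle and 91 in TAMo, log2 ratio −2.15, 95% exact binomial interval −2.50 to −1.81), and to Klre1, a killer lectin-like receptor gene (282 and 80 reads, −2.12, −2.50 to −1.76). Cass4, an adaptor protein gene, was the one with at least as many vehicle reads as Prf1 (685 and 205 reads, −2.04, −2.28 to −1.82). Hist1h2bj and Hist1h4m, histone genes with near-identical copies, were also among them (−1.83 and −1.74). Others were Trmt10b, Rabgap1, Nepn, Treml2, Serpina3g, Fam71b, Afmid, Slc43a3 and Neil3.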
